A study of Mus musculus with 16 samples.

Results

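Nuclear genes for complex I of the respiratory chain were examined in mouse gastrocnemius muscle. The genes were the rows of the count table whose symbols read Nduf, then a, b, c, s, v or af, then a number, with symbols carrying -ps left out. This rule used names only and took 49 of 35415 genes. Of these, 41 carry subunit symbols and 8, Ndufaf1 to Ndufaf8, are assembly factors. All 49 had counts in 16 of 16 libraries and all 49 passed the filter on low counts, as did 14749 genes in all.

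Polyadenylated RNA came from 16 wild-type male BALB/c mice, 8 weeks old at purchase, with 4 mice in each of the groups C, E, T and TE. The T and TE mice were injected under the skin of the left dorsolateral hind limb with CT26, a mouse colon carcinoma cell line that grows in this strain. The C and E mice received saline at that site, and all 16 were anesthetized with pentobarbital for the injection. From the next day the E and TE mice ran on a treadmill at 14 m/min for 60 min a day on 6 days a week over 4 weeks, whereas the C and T mice stood on a treadmill that did not move. Not every TE mouse in the study formed a tumor, and no label says whether those sequenced had one. The leg from which the muscle was taken is not given in the sources used here. The comparisons ask how a tumor (T vs C), training (E vs C), training with a tumor (TE vs T), a tumor with training (TE vs E) and the interaction of both bear on these transcripts.

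Complex I takes electrons from NADH, passes them along a flavin and a chain of iron-sulfur clusters to ubiquinone, and pumps protons across the inner mitochondrial membrane. Its matrix arm holds the NADH-oxidising (N) and ubiquinone-binding (Q) modules, and its membrane arm is made of a proximal and a distal part around subunits that mitochondrial DNA encodes. Assembly factors bind intermediates, modify single subunits or help modules to join, and are not kept in the finished enzyme. Muscle fibers with many mitochondria, the oxidative fibers, are rich in this complex, and endurance training is known to raise mitochondrial content of muscle.

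Library totals ran from 35628211 to 37635741 counts, so that differences in depth were small. Fast fiber genes summed to between 96903 and 123057 CPM (counts scaled to library size, with TMM factors) in each library, and gastrocnemius is a mostly fast muscle. The third T library carried the lowest weight (0.493) when libraries were weighted by how well they matched their group. The fourth TE library held lymphocyte and lymph node transcripts, at a summed 74.9 CPM against 0.0279 to 0.407 CPM in the other TE libraries. The third C library, at 21.1 CPM, the first E library, at 15.2 CPM, the second C library, at 7.18 CPM, and the second E library, at 6.36 CPM, held some as well. Their part in the complex I values was not tested. In whole muscle, fewer cells of a type and less RNA per cell cannot be told apart.

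The subunit transcripts were abundant and the assembly factors scarce. The 49 genes together took 0.868% ± 0.0374 of all counts in the C group, 0.822% ± 0.0186 in the E group, 0.816% ± 0.0351 in the T group and 0.828% ± 0.0165 in the TE group (mean ± SD, n = 4 each). Between genes, levels were compared as FPKM, fragments scaled to transcript length and library size. Ndufa4 was highest at a mean of 989 FPKM over the 16 mice, with a range from 903 to 1168. Ndufa4 is named for complex I but is now assigned to cytochrome c oxidase (complex IV). Ndufb9 followed at 638 FPKM, Ndufb10 at 525 FPKM and Ndufa3 at 396 FPKM, all accessory subunits of the membrane arm. With Ndufa4l2 and the single-exon copies set aside, the lowest subunit was Ndufa11, a membrane arm subunit, at 56.5 FPKM with a range from 48.6 to 64.4.

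**Figure D1:**
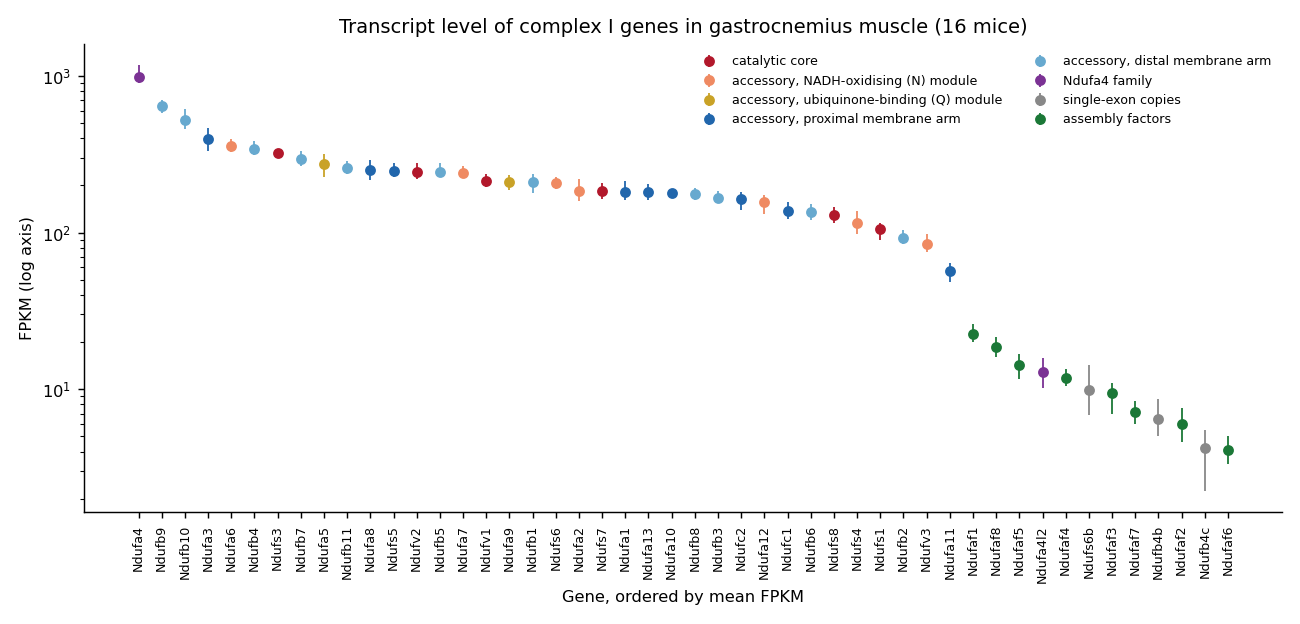
Mean FPKM of 48 of the genes over 16 mice on a log axis, with lines from the lowest to the highest mouse and colors for the place of the protein in the complex. The subunits other than Ndufa4l2 and the single-exon copies run from 989 FPKM (Ndufa4) to 56.5 FPKM (Ndufa11). The 8 assembly factors, Ndufa4l2 and the single-exon copies all lie at or under 22.4 FPKM.

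The 7 nuclear catalytic core subunits, which carry the flavin and the iron-sulfur clusters, had a median of 213 FPKM. Ndufs3, a Q module subunit, had 323 FPKM and varied least of all 49 genes over the 16 mice, with a coefficient of variation of 3.39%. Ndufv2, an iron-sulfur subunit, had 245 FPKM. Ndufv1, which binds NADH and the flavin, had 213 FPKM, and Ndufs7, which holds the last cluster before ubiquinone, had 184 FPKM. Ndufs8 had 130 FPKM and Ndufs1, the largest subunit of the N module, had 105 FPKM. Accessory subunits were spread in the same range, with a median of 184 FPKM for the N module, 242 FPKM for the Q module, 181 FPKM for the proximal and 243 FPKM for the distal membrane arm.

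Among the assembly factors, Ndufaf1, which acts on a membrane arm intermediate, was highest at 22.4 FPKM. Ndufaf6, which acts early in assembly, was lowest at 4.12 FPKM, and the median of the 8 was 10.6 FPKM. With Ndufa4l2 and the 3 single-exon copies set aside, 37 subunits remained, Ndufa4 among them. In each of the 16 libraries all 37 lay above all 8 assembly factors. The lowest subunit value in any mouse was 48.6 FPKM and the highest assembly factor value 26.2 FPKM. The ratio of the subunit median to the assembly factor median was 19.6 ± 0.598 in the C group, 19.0 ± 0.947 in the E group, 20.4 ± 1.1 in the T group and 18.8 ± 1.49 in the TE group (SD, n = 4 each), and the mice of the groups spanned 17.2 to 21.8. The gap between the classes was thus many times its spread over mice in every group.

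Ndufa4l2, a relative of Ndufa4 that low oxygen is known to induce, had 13.0 FPKM, on the level of the assembly factors. The copies Ndufs6b, Ndufb4b and Ndufb4c had 9.85, 6.46 and 4.20 FPKM and were the most variable of the 49 genes, with coefficients of variation from 18.6% to 19.9%. All 3 have 1 exon in the GRCm39 annotation, where Ndufb4b (chr19:25010486-25010967, plus strand) is a lncRNA and Ndufb4c (chr15:73681356-73681745, minus strand) and Ndufs6b (chr7:80811145-80811492, minus strand) are transcribed processed pseudogenes. The 387 bases of the Ndufb4 coding sequence occur without a difference in Ndufb4b and in Ndufb4c, so reads inside it have no unique origin. Ndufs6b differs from Ndufs6 at 12 of 347 aligned bases, and the longest stretch shared without a difference is 82 bases. The first 90 coding bases are shown to let the copies be compared, with differing bases in capitals.
Ndufb4, Ndufb4b and Ndufb4c: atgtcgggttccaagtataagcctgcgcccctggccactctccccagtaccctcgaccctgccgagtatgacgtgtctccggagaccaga
Ndufs6: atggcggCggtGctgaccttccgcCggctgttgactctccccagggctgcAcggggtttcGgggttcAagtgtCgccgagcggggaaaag
Ndufs6b: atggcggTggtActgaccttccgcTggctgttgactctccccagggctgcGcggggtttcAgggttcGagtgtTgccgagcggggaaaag
In these 90 bases Ndufs6 and Ndufs6b differ at 7 positions. Counts of all 3 copies are uncertain, since how reads that match both a gene and its copy were handled is not given. The genes followed most closely here are protein-coding and spread over the GRCm39 genome, with Ndufv1 at chr19:4057384-4062814 and Ndufv2 at chr17:66385633-66408634, both on the minus strand. Ndufc2 lies at chr7:97049210-97057022 and Ndufa4l2 at chr10:127350818-127353038, both on the plus strand. The assembly factor genes Ndufaf6 (chr4:11048820-11076236) and Ndufaf2 (chr13:108139249-108295189) are on the minus strand.

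No complex I gene passed the threshold with the tumor alone. In T vs C, 0 of 49 genes had an adjusted p under 0.05 (edgeR, quasi-likelihood test, Benjamini-Hochberg over 14749 genes), against 0.678% of all tested genes. DESeq2, which called 432 genes in all, and limma-voom, which called 68, also had 0 of the 49. At an unadjusted p under 0.05 there were 9 genes, all lower in T, where 5.96% of all tested genes were lower at that level. Of the 41 subunits 35 had a log2 fold change below 0, as did 50.3% of all tested genes, and their median was -0.07. The assembly factors had 6 of 8 below 0 and a median of -0.14, which was -0.07 without the third T library, whereas the median over all tested genes was within 0.01 of 0.

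Ndufc2, a membrane arm subunit, had the smallest p in T vs C. Its levels were 129, 121, 119.5 and 121 CPM in the C mice and 114, 114, 94.4 and 108 CPM in the T mice, and the groups did not overlap. The log2 fold change was -0.19 ± 0.0664 (SE) with an adjusted p of 0.193 by edgeR. Ndufb10, a distal membrane arm subunit, was the other gene without overlap, with 357 to 410.04 CPM in C and 307 to 356 CPM in T, and 2.83% of all tested genes were separated in this direction. Ndufa11 had 149.99, 169, 148 and 166 CPM in the C mice and 149, 143, 128 and 143 CPM in the T mice, where 1 T mouse lay within the C range. Its log2 fold change was -0.17 ± 0.0603 (SE) with an adjusted p of 0.205 by edgeR. Ndufb4b, the lncRNA copy, had 2.64 to 4.09 CPM in C and 2.40 to 3.01 CPM in T, with a log2 fold change of -0.41 ± 0.157 (SE) and an adjusted p of 0.240 by edgeR.

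The core subunits stood closest to C of all modules, with a median log2 fold change of -0.02 for the 7. Ndufv1 was at the upper end of the 49 genes, with 337, 366, 326 and 356 CPM in C and 372, 368, 341 and 388 CPM in T. The T mice overlapped the C mice, and its log2 fold change of 0.08 ± 0.0650 (SE) had an adjusted p of 0.593 by edgeR. Ndufs1, Ndufs3, Ndufs7 and Ndufs8 had log2 fold changes between -0.05 and -0.02, all of which were above 0, up to 0.04, without the third T library. Ndufv2 had -0.11, or -0.06 without that library, and Ndufv1 had 0.05 without the third C library. Among the assembly factors, Ndufaf6 had the smallest p, with 22.5, 20.1, 18.0 and 19.7 CPM in C and 19.0, 18.1, 14.2 and 18.2 CPM in T. Its log2 fold change was -0.21 ± 0.0903 (SE) with an adjusted p of 0.296 by edgeR, the groups overlapped, and the value was -0.13 without the third T library.

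The T vs C values leaned on a few mice. Each library's subunit level was summarised as the median over 41 genes of log2 CPM minus the 16-mouse mean. It was 0.11, 0.12, -0.07 and 0.06 in the C mice and 0.05, 0.01, -0.16 and 0.04 in the T mice. The third T mouse was the lowest of all 16, and the third C mouse lay among the E mice. Without the third T library 28 of 41 subunits were below C with a median of -0.03, and 4 genes had an unadjusted p under 0.05, as many as without the second C library and 1 fewer than without the first. Without the third C library 38 were below C with a median of -0.11, and 15 genes had such a p. For these fits the share of all tested genes at that p is not given here. For the 37 subunits the 95% confidence intervals of the log2 fold changes in T vs C lay between -0.34 and 0.22. Adipocyte, lymphocyte and slow fiber markers had 0 at an adjusted p under 0.05 in T vs C. Of 6 adipocyte markers 5 were above 0 with a median of 1.02 and 0 at an unadjusted p under 0.05, and the third T mouse had the highest adipocyte sum of the T mice, at 175 CPM. All 7 lymphocyte and lymph node markers were below 0, 6 of them at an unadjusted p under 0.05, and all 9 slow fiber markers were above 0 with a median of 0.42, 1 of them at that p. Over the 16 libraries, which share depth and scaling, the adipocyte median had r = -0.51 with the subunit median. The part of these transcripts in the complex I values was not tested.

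**Figure D2:**
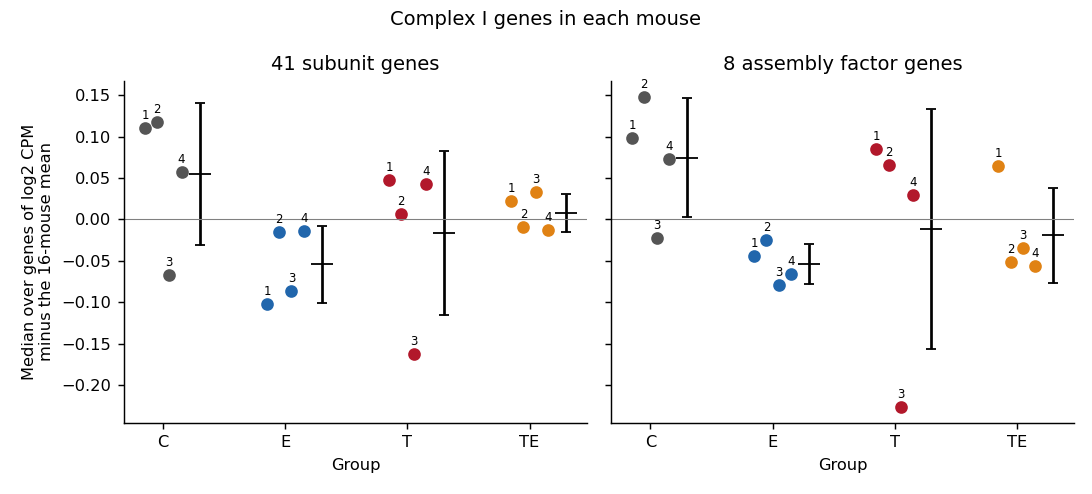
Median over the 41 subunits (left) and the 8 assembly factors (right) of log2 CPM minus the 16-mouse mean, 1 numbered point per mouse, with the group mean and SD in black. In the subunits the C mice reach 0.12, the E mice lie from -0.10 to -0.01, and the third T mouse is lowest at -0.16.

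Training alone had no gene past the threshold either, but nearly all subunits lay under the untrained controls, the C mice also used in T vs C. In E vs C, 0 of 49 genes had an adjusted p under 0.05 by edgeR, against 0.0881% of all tested genes. DESeq2 (252 genes called in all) and limma-voom (141 in all) also had 0 of the 49. At an unadjusted p under 0.05 there were 14 genes, all lower in E, where 5.67% of all tested genes were lower at that level. Of the 41 subunits 39 had a log2 fold change below 0, as did 49.4% of all tested genes, with a median of -0.12. All 37 subunits other than Ndufa4l2 and the copies were below 0, from -0.23 for Ndufa3 to -0.01 for Ndufa12, which is 0.855 to 0.996 of the C level. Of those set aside, Ndufa4l2 was above 0, at 0.13 ± 0.0880 (SE) with an adjusted p of 0.532 by edgeR, and so was Ndufb4c, at 0.05, or -0.05 without the first E library. Every module had a median below 0, of -0.11 for the core, -0.09 for the N module, -0.12 for the Q module, -0.15 for the proximal and -0.12 for the distal membrane arm.

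Ndufv2 showed the separation in the core. It had 431, 447, 396 and 425 CPM in the C mice and 392, 392, 361 and 378 CPM in the E mice, and the lowest C mouse lay above the highest E mouse. Its log2 fold change was -0.16 ± 0.0607 (SE) with an adjusted p of 0.264 by edgeR. Ndufa4 had 603, 523, 491 and 517 CPM in C and 457, 501, 450.2 and 484 CPM in E, where 1 E mouse lay above the lowest C mouse. Its log2 fold change was -0.17 ± 0.0666 (SE), also with an adjusted p of 0.264 by edgeR, and the value was -0.11 without the first C library. In all, 8 genes did not overlap, each lower in E, where 4.02% of all tested genes were so separated. The subunits among them were Ndufv2, Ndufs7, Ndufb2, Ndufb8 and Ndufs5.

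The assembly factors were not uniform in E vs C. Ndufaf6, Ndufaf5 and Ndufaf3 did not overlap between the groups. Ndufaf6 had 17.5, 16.8, 16.2 and 17.5 CPM in the E mice, all under the lowest C mouse at 18.0 CPM, and a log2 fold change of -0.24 ± 0.0903 (SE) with an adjusted p of 0.249 by edgeR. Ndufaf5, which hydroxylates Ndufs7, had 45.1, 45.9, 41.3 and 40.7 CPM in C and 40.5, 35.0, 37.7 and 34.4 CPM in E. Its log2 fold change was -0.23 ± 0.0902 (SE) with an adjusted p of 0.276 by edgeR. Ndufaf8, the partner of Ndufaf5, had -0.26 and Ndufaf1 had -0.17, whereas Ndufaf2, Ndufaf4 and Ndufaf7 lay between 0.01 and 0.02, and Ndufaf2 ran from -0.04 without the third C library to 0.14 without the second. The median of the 8 was -0.20, with 5 of 8 below 0.

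Which C mouse was left out moved the E vs C count of genes at an unadjusted p under 0.05 from 1 without the first C library to 25 without the third. It was 5 without the second C library, 4 without the first E library and 7 without the third E library. The share of all tested genes at that p is not given here for these fits, so these counts have no background beside them. The direction moved little, and 38 to 40 of 41 subunits were below 0 whichever library was left out. The subunits varied together over the libraries, with a median pair correlation of 0.53, and these fits share most mice. The 41 subunits are thus not separate evidence of direction. Fast fiber markers had 8 of 10 below 0 in E vs C with a median of -0.11, beside the subunit median of -0.12, and 0 at an adjusted p under 0.05. The 6 adipocyte markers all had a log2 fold change above 0 in E vs C, with a median of 1.46. Of these 4 had an unadjusted p under 0.05 and 0 an adjusted one. They summed to 44.8 to 244 CPM in E and 14.1 to 74.7 CPM in C. Of 5 tendon markers 4 were higher and 2 passed the threshold, Tnmd at a log2 fold change of 1.56 (adjusted p = 0.0274) and Fmod at 1.99 (adjusted p = 0.0206), both by edgeR. The part of fast fiber, adipocyte and tendon transcripts in the complex I values was not tested.

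**Figure D3:**
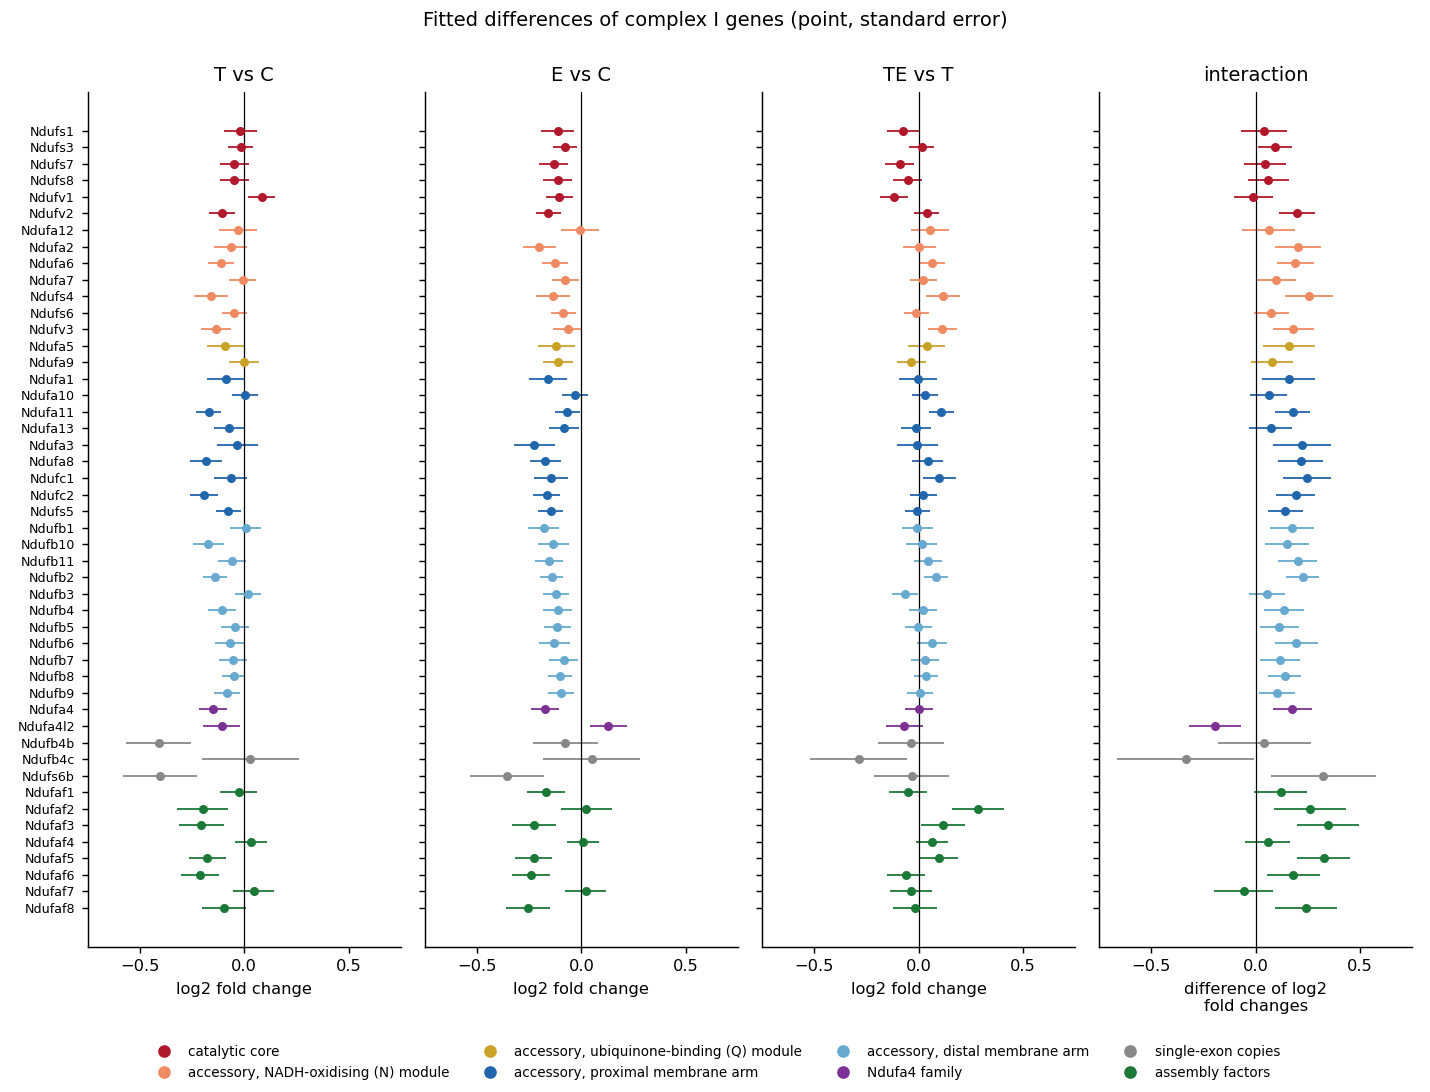
Log2 fold changes of 48 of the genes in T vs C, E vs C and TE vs T and the interaction (the difference of log2 fold changes, TE vs T minus E vs C), each as a point with its standard error, ordered by module. In E vs C 43 of 48 points lie left of 0, in T vs C 41, and in the interaction 44 lie right of 0, with no gene at an adjusted p under 0.05.

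In CT26-injected mice, no single complex I gene passed the threshold with training, and the subunits lay on both sides of 0. In TE vs T, 0 of 49 genes had an adjusted p under 0.05 by edgeR, against 0% of all tested genes. DESeq2 (7 genes called in all) and limma-voom (0 in all) also had 0 of the 49. Unadjusted, 1 gene had a p under 0.05, higher in TE, where 2.87% of all tested genes were higher at that level. Of the 41 subunits 23 were above 0, as were 50.5% of all tested genes, and 18 below, with a median of 0.01, and the assembly factors split into 4 and 4 with a median of 0.02. The 37 subunits ran from -0.12 for Ndufv1 to 0.12 for Ndufs4, and their 95% confidence intervals lay between -0.25 and 0.29. Without the third T library the median of the 41 subunits was -0.03 with 28 below 0, and 10 were below 0 without the fourth T library and 11 without the second or the fourth TE library. The assembly factor median was -0.03 without the third T library and 0.06 without the first. There were 4 genes at an unadjusted p under 0.05 without the first T library, none without the second T, the third TE or the fourth TE library, and 1 higher and 1 lower without the third T library. The 7 lymphocyte and lymph node markers were all above 0 here, 6 at an unadjusted p under 0.05 and 0 adjusted, and their part was not tested.

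Ndufaf2, which holds a late intermediate before the N module is completed, was the gene at the unadjusted level. It had 4.93, 4.26, 4.84 and 5.11 CPM in the T mice and 5.19, 5.79, 6.02 and 6.32 CPM in the TE mice, with no overlap, where 1.24% of all tested genes were separated in this direction. The highest T mouse and the lowest TE mouse were nearly equal, and both lay within the C range of 4.75 to 6.75 CPM. The log2 fold change was 0.28 ± 0.123 (SE) with an adjusted p of 0.843 by edgeR. It rests on 154 to 185 counts in the T libraries and 191 to 236 in the TE libraries. Ndufv1 had 344, 356, 329 and 324 CPM in TE, and its log2 fold change of -0.12 ± 0.0650 (SE) had an adjusted p of 0.860 by edgeR. Ndufa11 had 148, 153, 155 and 150.4 CPM in TE, with a log2 fold change of 0.11, or 0.07 without the third T library, and the same adjusted p.

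**Figure D4:**
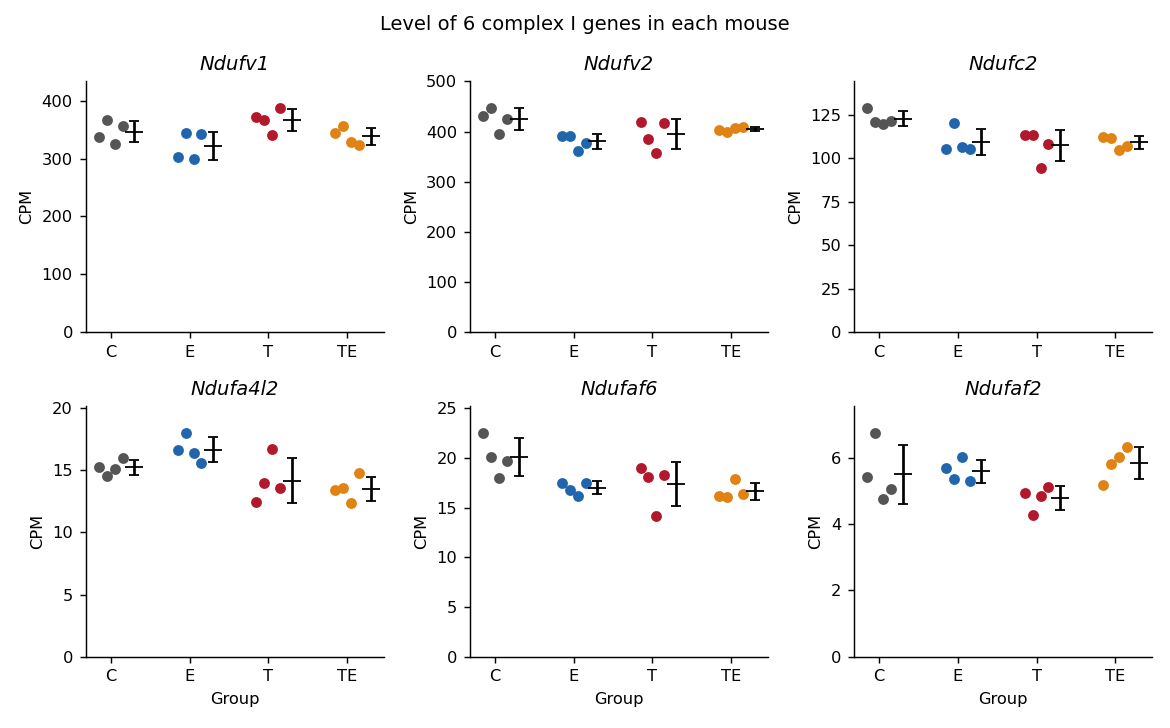
CPM of 6 complex I genes in each mouse of the 4 groups, with group mean and SD (n = 4) in black and axes from 0. Ndufv2 and Ndufaf6 are lower in every E mouse than in any C mouse, Ndufc2 is lower in every T mouse than in any C mouse, and Ndufaf2 is higher in every TE mouse than in any T mouse, all without an adjusted p under 0.05.

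With training in both groups, TE vs E had 0 of 49 genes at an adjusted p under 0.05 by edgeR, against 0.231% of all tested genes. DESeq2 (180 genes called in all) and limma-voom (61 in all) also had 0 of the 49. Unadjusted, 2 genes higher and 2 lower in TE had a p under 0.05, where 3.7% and 5.53% of all tested genes were higher and lower. In leave-one-out fits the higher count was 0 without the first E or the third TE library, 1 without the fourth E library and at most 3 elsewhere, and the lower count was 1 without the second E, the fourth E, the first TE or the third TE library. Of the 41 subunits 33 were above 0, as were 50.8% of all tested genes, with a median of 0.07. The assembly factors had 6 of 8 above 0 and a median of 0.09. Of 5 tendon markers 4 were below 0 with a median of -1.50, and 2, Tnmd and Fmod, were lower at an adjusted p under 0.05 by edgeR. All 6 adipocyte markers were below 0 with a median of -0.58 and 0 at that level. Of 10 fast fiber markers 8 were above 0 with a median of 0.09, and all 9 slow fiber markers were below 0 with a median of -0.31. Both fiber lists had 0 at an adjusted p under 0.05, and the part of all these lists was not tested. Ndufa4l2 went the other way, with 16.6, 18.0, 16.4 and 15.6 CPM in the E mice and 13.4, 13.5, 12.4 and 14.7 CPM in the TE mice, and the groups did not overlap. Its log2 fold change was -0.30 ± 0.0883 (SE) with an adjusted p of 0.220 by edgeR. Separated in its direction were 2 complex I genes, Ndufa4l2 and Ndufb4b, where 3.95% of all tested genes were, and 4 subunits were separated upward, where 2.68% were. Ndufb1, a distal membrane arm subunit, had 61.7, 59.9, 72.8 and 63.2 CPM in E and 69.2, 67.4, 79.5 and 75.8 CPM in TE, which overlapped, with a log2 fold change of 0.18 ± 0.0747 (SE) and an adjusted p of 0.460 by edgeR.

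The interaction asks whether training moved the genes differently with and without a tumor. It had 0 of 49 genes at an adjusted p under 0.05 by edgeR, against 0% of all tested genes. DESeq2 (21 genes called in all) and limma-voom (0 in all) also had 0 of the 49. At an unadjusted p under 0.05 there were 7 genes, all above 0, where 3.7% of all tested genes were. Of the 41 subunits 38 were above 0, as were 49.8% of all tested genes, with a median of 0.14, and of the assembly factors 7 of 8 with a median of 0.21. In the interaction 4 of 5 tendon, all 6 adipocyte, all 9 slow fiber and all 5 neutrophil markers were below 0 and all 7 lymphocyte and lymph node and 8 of 10 fast fiber markers above 0, with 0 at an adjusted p under 0.05, and their part was not tested. These values share the C mice with T vs C and E vs C and are not separate evidence of direction. The count at the unadjusted level ran from 2 without the second C or the third T library, through 3 without the first E or the first TE library, 4 without the first C or the third E library and 12 without the first T library, to 17 without the third C library. Shares of all tested genes at that level are not given here for these fits.

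Ndufb2 had the smallest p in the interaction. Its levels were 85.3, 86.5, 80.1 and 80.8 CPM in C, 71.8, 73.1, 78.8 and 77.7 CPM in E, 74.9, 80.3, 72.0 and 74.8 CPM in T and 80.2, 77.0, 84.1 and 78.4 CPM in TE. The E mice and 3 of the T mice lay under the C range, and of the TE mice 2 lay in the C range and 2 in the E range. The interaction was 0.22 ± 0.0796 (SE) on the log2 scale with an adjusted p of 0.441 by edgeR. Ndufaf5 had 43.0, 40.1, 31.9 and 38.1 CPM in T and 39.0, 38.2, 46.5 and 39.9 CPM in TE, with an interaction of 0.32 ± 0.128 (SE) and an adjusted p of 0.485 by edgeR. For Ndufv2, whose TE mice all lay between 399.9 and 410.04 CPM, the interaction was 0.20 ± 0.0859 (SE) with an adjusted p of 0.529 by edgeR. Ndufv1 was the exception among the 37 subunits, at -0.01, or 0.03 without the fourth E library.

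Averaged over training, the tumor main effect (T and TE against C and E) had 0 of 49 genes at an adjusted p under 0.05 by edgeR, against 1.36% of all tested genes. It also had 0 of the 49 by limma-voom, which called 223 genes in all, and 1 by DESeq2, which called 479. Unadjusted, 2 had a p under 0.05, both lower with a tumor, where 6.81% of all tested genes were, and 6 were lower without the third C or the first T library and 4 without the first E library. The subunits split into 18 above and 23 below 0, where 49.8% of all tested genes were below, with a median of -0.01. Ndufb4b had 3.13 to 3.74 CPM in the E mice and 2.36 to 2.76 CPM in the TE mice, and its main effect was -0.39 ± 0.111 (SE) with an adjusted p of 0.104 by edgeR. It passed with DESeq2 (adjusted p = 0.0445) and in edgeR without the third C library (adjusted p = 0.0450). Ndufa4l2 had a main effect of -0.20 ± 0.0625 (SE) with an adjusted p of 0.128 by edgeR. The third T mouse, at 16.7 CPM, was the highest of the CT26-injected mice, and without it the main effect was -0.25 with an adjusted p of 0.0287.

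The exercise main effect (E and TE against C and T) had 0 of 49 genes at an adjusted p under 0.05 by edgeR, against 0.00678% of all tested genes. DESeq2 (90 genes called in all) and limma-voom (14 in all) also had 0 of the 49. At an unadjusted p under 0.05 there were 4 genes, all lower with training, where 4.8% of all tested genes were, and the count ran from 0 without the fourth T library to 13 without the third, with 9 without the third C library and 1 or 2 without any of 11 others. Of the 41 subunits 36 were below 0, as were 48.4% of all tested genes, with a median of -0.06. All 9 slow fiber markers were below 0 with a median of -0.49, whereas all 6 adipocyte, all 7 lymphocyte and lymph node and 4 of 5 tendon markers were above 0. Unadjusted, 4, 0, 5 and 3 markers of these lists had a p under 0.05 and 0 an adjusted one, and their part was not tested. Ndufv1 had the smallest p, at -0.11 ± 0.0459 (SE) with an adjusted p of 0.397 by edgeR. Ndufs7, with 217, 210.004, 204 and 229.9 CPM in C and 199, 196, 189.99 and 199.9 CPM in E, had -0.11 ± 0.0498 (SE) with an adjusted p of 0.434 by edgeR. Its T mice had 234, 202, 185 and 211 CPM and its TE mice 181, 193, 211 and 198 CPM, which overlapped. Ndufaf6 had -0.15 ± 0.0640 (SE) with an adjusted p of 0.411 by edgeR.

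The distance of the subunits from the assembly factors was compared between groups without a test. The subunit median minus the assembly factor median of a library, both as centred log2 CPM, was -0.02 ± 0.0242 in C, -0.0005 ± 0.0455 in E, -0.0044 ± 0.0549 in T and 0.03 ± 0.0484 in TE (SD, n = 4 each). The mean ± SD of each group overlapped that of the others, and the TE mean lay above every C mouse. In the third T mouse both classes were low, at -0.16 for the subunits and -0.23 for the assembly factors.

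Across the 16 libraries the subunits varied together, as a description of points that share a library and its scaling. The Pearson correlation of log2 CPM had a median of 0.53 over 820 pairs of subunits, 746 of them above 0, and a median of 0.51 with the group means removed. It was 0.23 over 28 pairs of assembly factors and 0.39 between the classes. The genes that correlated most with the mean log2 CPM of the other subunits were Ndufb9 at 0.908, Ndufa6 at 0.891, Ndufaf6 at 0.885 and Ndufv2 at 0.871. Ndufaf6 was thus the only assembly factor among the first 4, although it had the lowest FPKM of all 49 genes. Ndufa4l2 was at the other end at -0.38, below Ndufb4c at 0.037, Ndufaf4 at 0.161 and Ndufaf2 at 0.181.

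The other genes of the respiratory chain stood beside the members as follows, with 0 at an adjusted p under 0.05 in any comparison by edgeR. Other complex I genes, among them the subunit Ndufab1 and assembly factors such as Ecsit, Acad9 and Timmdc1, had 15 tested genes. Of these 11 were below 0 in T vs C with a median of -0.07 and 15 in E vs C with a median of -0.12. Of 41 nuclear genes of complexes II to V, 34 were below 0 in T vs C with a median of -0.06 and 40 in E vs C with a median of -0.12. For the complex I subunits the medians in these comparisons were -0.07 and -0.12, within 0.01 of those of complexes II to V. The 7 mitochondrially encoded ND subunits had 5 below 0 in each comparison, with medians of -0.04 in T vs C and -0.06 in E vs C. Of 9 regulators of mitochondrial genes, 6 were above 0 in T vs C and 7 in E vs C, and Ppargc1a, a coactivator, had log2 fold changes of 0.39 (adjusted p = 0.10) and 0.37 (adjusted p = 0.153) by edgeR.

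Fast and slow fiber genes stood differently to the subunits. Over the 16 libraries, which share depth and scaling, the subunit median correlated with that of complexes II to V at r = 0.964 and with that of 10 fast fiber markers at r = 0.783, but at r = -0.15 with that of 9 slow fiber markers. The slow markers summed to 872 to 2319 CPM in C, 1047 to 1623 CPM in E, 1125 to 3149 CPM in T and 975 to 1316 CPM in TE. In TE vs T all 9 slow markers were below 0 with a median of -0.87, 9 at an unadjusted p under 0.05 and 0 at an adjusted one, beside the subunit median of 0.01. The fourth T mouse had the highest slow fiber level of all 16 mice, and its subunit level was 0.04. The part of fiber makeup in the complex I values was not tested.

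**Figure D5:**
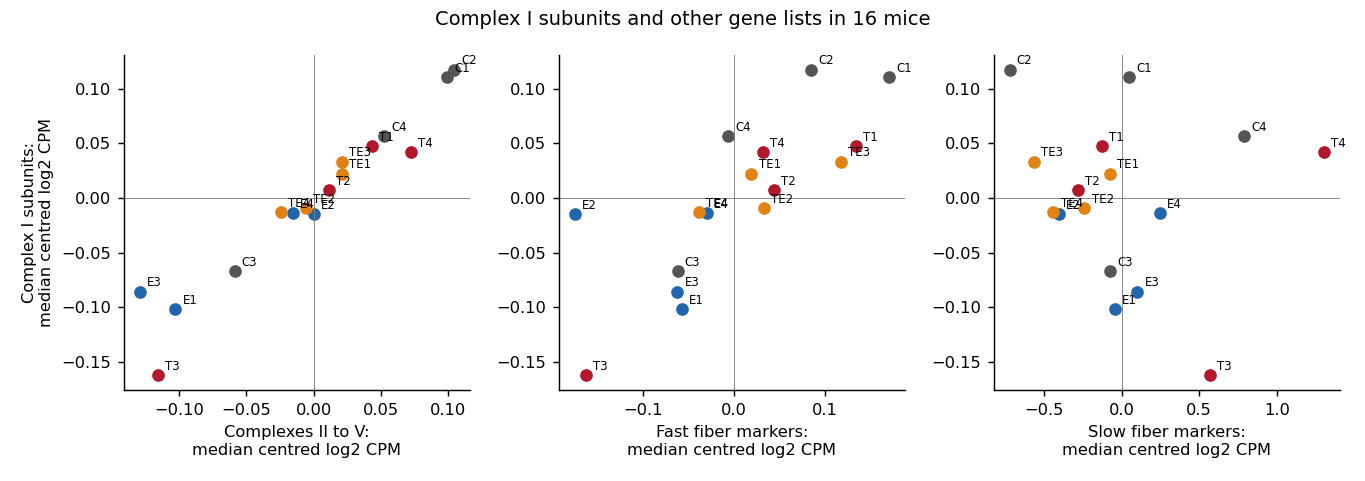
Subunit level of each of 16 mice (median over 41 genes of log2 CPM minus the 16-mouse mean) against the same measure for complexes II to V, fast fiber markers and slow fiber markers, with points colored by group and labelled by mouse. The subunits follow complexes II to V (r = 0.964), with the third T mouse at the lower left, and spread without order over the slow fiber markers (r = -0.15).

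Blood cell transcripts differed between the groups with and without CT26 cells. Of 5 erythroid markers 4 passed the threshold in T vs C (Hba-a1, Hbb-bs, Hbb-bt and Alas2), with a median log2 fold change of 0.86 for the list, and their sum was 223 to 326 CPM in C and 471 to 524 CPM in T. All 5 tested neutrophil markers passed (S100a8, S100a9, Ngp, Ltf and Retnlg), with sums of 0.632 to 3.43 CPM in C and 7.71 to 42.5 CPM in T. In TE vs E all 5 erythroid markers passed, Hba-a2 included, whereas of the 5 neutrophil markers, all above 0, 0 had an adjusted p under 0.05 and 4 an unadjusted one. In the C mice Retnlg was at 0 in each library. The part of these transcripts in the complex I values was not tested.

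Promoters were looked at because the subunits varied together. A promoter, 250 bases before to 50 after the start, was given for 41 of the 49 genes in the RefSeq table of GRCm38.p6, and 5 motifs were searched on both strands in these and in the promoters of all 27025 genes of the table. The YY1 motif AAGATGGC was in 7 of 34 subunit genes (20.6%) and 1 of 7 assembly factor genes (14.3%), and in 3.19% of all genes. The NRF1 core CGCATGCG was in 2 of 34 (5.88%) and 2 of 7 (28.6%), and in 2.07% of all. The ERR motif TCAAGGTCA was in none of either class and in 0.466% of all. The ETS motif CCGGAAG was in 11.8% and 28.6%, and in 9.93% of all, and the SP motif GGGCGG was in 41.2% and 85.7%, and in 38.2% of all. An ETS and an SP match overlapped in 1 member, Ndufs3, and no other pair of motifs overlapped in a member promoter. A match is a description of letters and not of binding. Shown, with the motifs in capitals, are a subunit with the YY1 motif, a subunit with the NRF1 core, and an assembly factor with the NRF1 core whose enzyme acts on Ndufs7, all from the plus strand (chr10:80249199-80249498, chr17:56717512-56717811 and chr2:140170396-140170695).
Ndufs7: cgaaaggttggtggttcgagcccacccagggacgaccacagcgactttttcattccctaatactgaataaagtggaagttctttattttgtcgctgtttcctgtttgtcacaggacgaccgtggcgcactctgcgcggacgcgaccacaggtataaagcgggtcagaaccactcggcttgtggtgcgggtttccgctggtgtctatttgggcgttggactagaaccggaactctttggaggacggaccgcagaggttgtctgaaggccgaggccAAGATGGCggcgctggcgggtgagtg
Ndufa11: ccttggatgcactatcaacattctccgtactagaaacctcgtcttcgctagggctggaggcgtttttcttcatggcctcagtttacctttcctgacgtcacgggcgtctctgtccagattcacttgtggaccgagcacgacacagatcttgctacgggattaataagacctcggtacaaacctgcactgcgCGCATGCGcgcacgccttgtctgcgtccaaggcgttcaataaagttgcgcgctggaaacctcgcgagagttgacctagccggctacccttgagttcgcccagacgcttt
Ndufaf5: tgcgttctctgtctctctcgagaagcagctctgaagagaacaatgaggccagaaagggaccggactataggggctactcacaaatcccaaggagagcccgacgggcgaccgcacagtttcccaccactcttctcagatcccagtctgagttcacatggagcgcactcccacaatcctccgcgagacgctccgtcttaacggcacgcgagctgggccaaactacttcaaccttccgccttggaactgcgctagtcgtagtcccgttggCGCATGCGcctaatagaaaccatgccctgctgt
The YY1 motif of Ndufs7 spans bases 24 to 31 after the start, the NRF1 core of Ndufa11 lies 59 to 52 bases before it, and that of Ndufaf5 spans bases 17 to 24 after it. In the E vs C comparison these genes had log2 fold changes of -0.13 (Ndufs7), -0.07 (Ndufa11) and -0.23 (Ndufaf5), none with an adjusted p under 0.05. For Ndufa11 the groups overlapped, with 148 to 169 CPM in the C mice and 146 to 153 CPM in the E mice.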

How the data were processed

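RNA sequencing was analysed in 16 libraries, with groups and replicate numbers from the sample labels. The authors enriched polyadenylated RNA and deposited raw counts per gene, made according to the submitters' processing notes with fastp 0.20.1, HISAT2 2.1.0 and HTSeq 0.11.2 on GRCm39. The authors also deposited FPKM values of the same libraries. Which annotation release was counted, and with which strand setting, is not given in the sources used here, so counts of overlapping genes and near-identical copies are uncertain. The tables held 0 columns of other samples.

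Counts were tested with edgeR 4.0.16 in R 4.3.3 (filterByExpr, TMM, glmQLFit and glmQLFTest, two-sided) with 1 coefficient per group over all 16 libraries, and p-values were adjusted by Benjamini-Hochberg over 14749 genes in each of 7 contrasts. The threshold was an adjusted p under 0.05 with no fold threshold. The step was tested on simulated data. CPM used TMM factors, and log2 CPM used a prior count of 2. Subunit, assembly factor and list medians carry no test. Shares of all tested genes at an unadjusted p are given for the full fit only, not for fits with a library left out. Alternatives were DESeq2 1.42.0 and its size factors, limma-voom 3.58.1 with sample weights, no filter on low counts, a replicate block, fits on the compared groups alone, the unadjusted p, log2(FPKM + 1) and log2(FPKM + 0.1) for medians, medians without the Ndufa4 family and copies, and each library left out in turn. Leaving out the third T and the fourth TE libraries together was chosen after seeing the data. The members and gene lists were chosen with earlier results of these data known.

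Named genes were, in each contrast, the 2 subunits and the assembly factor with the smallest p, the 7 core subunits, the highest and lowest genes by FPKM in each class, Ndufa4, Ndufa4l2, and genes of other lists with an adjusted p under 0.05. Ndufb10, Ndufb8, Ndufs5, Ndufs6b, Ndufaf3, Ndufaf8, Ndufb9, Ndufa3, Ndufa6, Ndufa12, Ndufs4, Ppargc1a and others outside this rule were chosen after their values were seen. GENCODE positions on GRCm39 were found for 49 of 49 genes. Values of 1 gene that the rule names are not reported here, though it enters all fits, counts and medians. Promoter motifs were chosen with results known, and the NRF1 core replaced a longer form of that motif after its matches were seen. Plots were made in Python 3.11.15 (matplotlib 3.10.9). Labels say that the mice of a group are separate biological replicates, and 1 batch number covers all 16 libraries.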

Additional observations from a re-analysis of the deposited data

Results flagged for a closer look

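In 5 of 88 sets of 4 mice tested, made of the named complex I genes, the class medians, their difference and the share of counts, the highest or lowest mouse stood apart from the other mice of its group by more than Dixon's 95% critical value for 4 samples, and chance flags about 1 in 20 groups. Ndufb4c was high in the fourth C mouse at 2.61 CPM. Ndufc2 was high in the second E mouse at 120.35 CPM, and Ndufa11 was low in the third E mouse at 146 CPM. Ndufaf6 was high in the third TE mouse at 17.9 CPM, and Ndufaf1 was high in the first TE mouse at 39.4 CPM.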

How the results depend on the processing

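Taking the unadjusted p in place of the adjusted p gave 9 complex I genes in T vs C, 1 in TE vs T, 14 in E vs C, 4 in TE vs E, 7 in the interaction, 2 in the tumor main effect and 4 in the exercise main effect, where each count was 0 with adjustment. The tumor main effect had 1 gene with DESeq2, 0 to 1 when a library was left out, and 1 without the third T and the fourth TE libraries together, the last chosen after seeing the data. The single gene was Ndufb4b with DESeq2 and without the third C library, and Ndufa4l2 without the third T library. In the other 6 comparisons the count was 0 under all alternatives with an adjusted p. Without the third T and the fourth TE libraries the assembly factor median in the interaction was 0.11 in place of 0.21. The causes were not tested.

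The subunit median in E vs C lay between -0.16 and -0.09 when a library was left out and between -0.12 and -0.08 under the other alternatives, and in T vs C between -0.11 and -0.03 and between -0.09 and -0.03. In TE vs T it changed sign, from -0.03 to 0.03, and in the tumor main effect from -0.05 to 0.02. Counting depth limits the copies most, as Ndufb4c had 40 to 98 counts in a library.

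The replicate number as a block gave 0 complex I genes at an adjusted p under 0.05 in all 7 contrasts. Same-numbered mice of different groups did not deviate together, with 5 of 24 pairs above a correlation of 0.1 and a range from -0.24 to 0.21, so the numbers were taken as names.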
